A study of Mus musculus with 9 samples.

Results

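Txnip, the gene of the thioredoxin-interacting protein, was examined together with 9 genes that act around it in glucose sensing and glucose uptake, in RNA-seq counts of neonatal mouse ventricular myocytes (NMVMs). The 10 genes were taken by name from the deposited table of 55401 genes: the alpha-arrestin genes Txnip, Arrdc4 and Arrdc3, the transcription factor genes Mlx and Mlxip, and the glucose transporter genes Slc2a1, Slc2a3, Slc2a4, Slc2a8 and Slc2a12. All 10 were among the 16762 genes (30.3% of the table) with enough counts to be tested. The myocytes came from the ventricles of wild-type C57BL/6J pups aged 1 day and were grown in DMEM with 10% FBS. The control group (n = 3) stayed in that complete medium at normal oxygen. The hypoxia group (n = 3) was moved to DMEM without glucose and without serum and kept for 6 h in a sealed AnaeroPack chamber, and the hypoxia + rSRGN group (n = 3) received recombinant serglycin in that medium over the hypoxic period, at a dose the labels do not give. Low oxygen, loss of glucose and loss of serum therefore cannot be told apart in any comparison with control, while the groups kept in hypoxia differed, as far as the labels say, only in the added protein.

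Cells measure their glucose supply partly through MondoA, the protein that Mlxip encodes, and its partner Mlx. When glucose enters and is phosphorylated by hexokinase, the MondoA:Mlx dimer moves to the nucleus and binds paired E-box-like elements, and its best-known targets are Txnip and Arrdc4. The TXNIP protein binds thioredoxin and also lowers glucose uptake by bringing glucose transporters in from the cell surface, which closes a feedback loop, and AMP-activated protein kinase (AMPK) marks it for breakdown when energy is short. Heart muscle relies on GLUT4 (Slc2a4), which insulin and contraction bring to the surface, and on GLUT1 (Slc2a1), which supplies a basal flux and is the main form of the fetal heart.

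The libraries held between 16583985 and 22781557 counted fragments, with control deepest. No label says that replicates came from separate cultures or animals, so the p-values measure only the spread between these libraries. The cells were labelled as ventricular myocytes, and the summed level of 16 cardiomyocyte markers was 52527 to 64053 CPM (counts per 1000000 counted fragments, TMM-scaled) in control, 4450 to 6953 CPM in hypoxia and 8906 to 9615 CPM in hypoxia + rSRGN. All 16 of these markers fell in hypoxia against control, whereas 8 of 10 fibroblast markers rose, with a sum between 10095 and 11758 CPM in control and between 21084 and 23790 CPM in hypoxia. Of the other lists, 9 of 10 macrophage markers and 6 of 8 endothelial markers fell, and 2 of 8 smooth muscle and pericyte markers rose while 1 fell, beside 26.4% of all tested genes called higher and 25.1% called lower in that comparison, so that the smooth muscle and pericyte counts are near the share over all genes. The macrophage sum was 233 to 249 CPM in control and 24.8 to 27.9 CPM in hypoxia, the endothelial sum 73.9 to 103 CPM and 49.97 to 64.4 CPM, and the smooth muscle and pericyte sum 1713 to 2022 CPM and 2397 to 2709 CPM. Erythroid markers summed to at most 0.804 CPM in any library, and none of the 7 could be tested. In these bulk cultures, fewer cells of a type and less RNA per cell cannot be told apart, and how far the markers of each cell type account for the changes below was not tested.

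Promoter sequence from RefSeq (GRCm38.p6) was on hand for 8 of the 10 genes, and the 250 bases before the start are shown for Txnip and Arrdc4, since these are the genes that MondoA:Mlx is best known to act on. In the Txnip window at chr3:96557707-96557956 on the plus strand, capitals mark the 2 E-box-like sites, 85 to 69 bases before the start, that together match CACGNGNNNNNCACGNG. In the Arrdc4 window at chr7:68749239-68749488 on the minus strand, capitals mark an E-box of the letters CACGTG, 193 to 188 bases before the start.
Txnip: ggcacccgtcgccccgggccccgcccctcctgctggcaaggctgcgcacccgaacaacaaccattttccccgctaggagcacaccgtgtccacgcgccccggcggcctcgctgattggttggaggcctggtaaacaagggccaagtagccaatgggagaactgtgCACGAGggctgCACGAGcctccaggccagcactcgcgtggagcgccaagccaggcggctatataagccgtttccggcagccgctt
Arrdc4: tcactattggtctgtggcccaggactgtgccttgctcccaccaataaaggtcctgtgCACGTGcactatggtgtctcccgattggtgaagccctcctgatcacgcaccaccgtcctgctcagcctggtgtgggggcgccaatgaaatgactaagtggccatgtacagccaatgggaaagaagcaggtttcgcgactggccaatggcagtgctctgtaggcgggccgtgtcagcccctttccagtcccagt
Searched on both strands, the paired element occurred in 15 of 32851 promoter windows of this length (0.0457%), and among the 8 genes of the set with a window in that of Txnip alone. The letters CACGTG occurred in 1978 windows (6.02%), including those of Arrdc4 and Mlx. ACGTG, the core of the element that hypoxia-inducible factors bind, occurred in 5444 windows (16.6%) and in those of Arrdc4, Arrdc3, Mlx and Slc2a1. Arrdc3 has 3 start sites in RefSeq, and ACGTG occurred before 1 of them. Each CACGTG holds ACGTG on both strands, so the Arrdc4 and Mlx matches are the same letters counted under both motifs. A match is a description of the letters and not of a bound site.

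In hypoxia against control, 7 of the 10 genes fell and the other 3 were not called. Those that fell were Txnip, Arrdc4, Mlxip, Slc2a1, Slc2a4, Slc2a8 and Slc2a12, and the range ran from a log2 fold change of −4.01 for Slc2a4 to one of 0.45, under the fold limit, for Mlx. A gene was called at a Benjamini-Hochberg adjusted p below 0.05 in the quasi-likelihood test of edgeR together with a fold change of at least 1.5. By the same rule 51.6% of all tested genes were called, 26.4% as higher and 25.1% as lower, and the median log2 fold change was −0.82 over the 10 genes against 0.05 over all tested genes. With no gene of the set called higher by edgeR or by DESeq2, 2 were higher at an unadjusted p below 0.05.

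**Figure D1:**
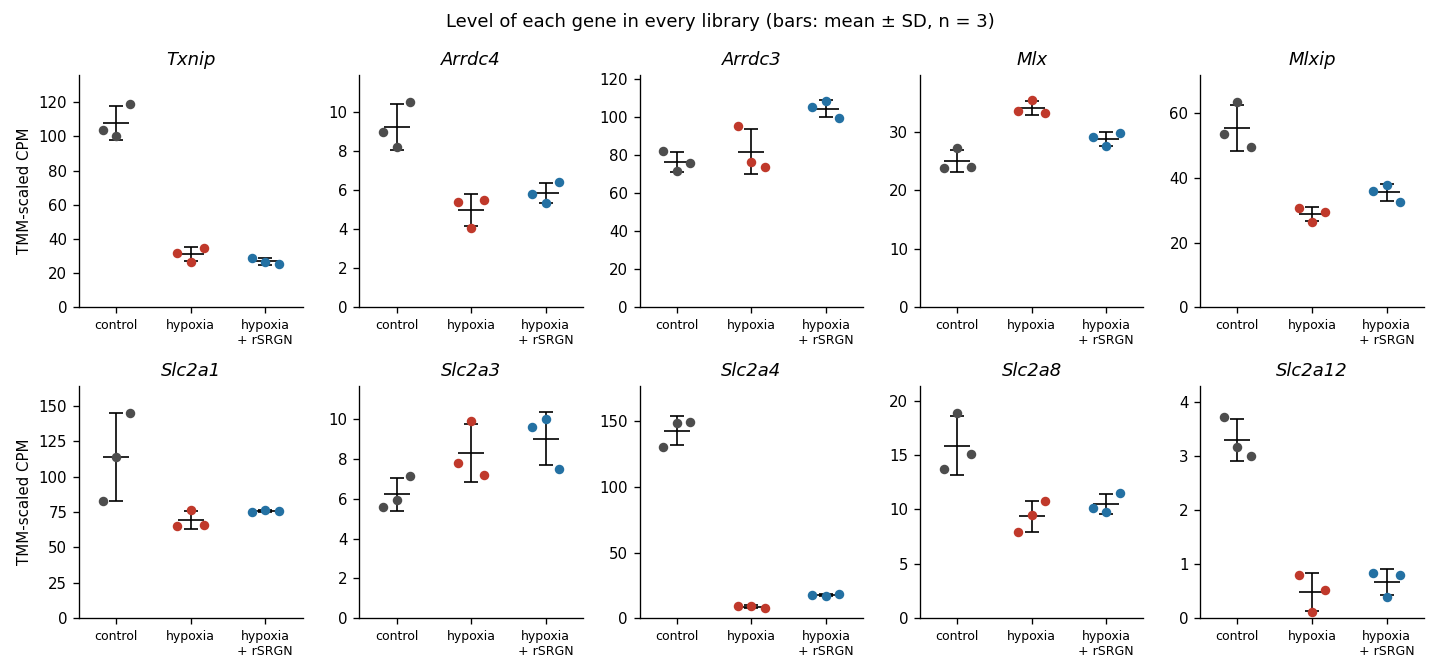
TMM-scaled CPM (vertical axes, linear from 0) of the 10 genes in each of the 9 libraries, with points for single libraries and bars for the mean ± SD of 3 libraries in control (grey), hypoxia (red) and hypoxia + rSRGN (blue). Slc2a4 lay between 130.0 and 149 CPM in control, between 7.52 and 9.60 CPM in hypoxia and between 17.2 and 18.7 CPM with rSRGN, while Txnip stayed between 25.3 and 34.6 CPM in all 6 hypoxic libraries.

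Txnip (ENSMUSG00000038393.14, GRCm38 chr3:96557957-96561883, plus strand) stood at 104, 100.3 and 119 CPM in the control libraries, at 31.9, 26.7 and 34.6 CPM in hypoxia and at 29.2, 26.3 and 25.3 CPM in hypoxia + rSRGN. Every control library was above every hypoxic library, and the hypoxia groups overlapped. Hypoxia against control gave a log2 fold change of −1.79 (SE 0.10, adjusted p = 2.45e-13), a 3.46-fold fall, and 8.56% of tested genes had a lower value. The exons of Txnip share 606 bases (19.4% of their length) with Gm15441 on the opposite strand, a gene at no more than 0.494 CPM, and counting without strand cannot tell fragments of such genes apart.

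Arrdc4, the closest relative of Txnip and also reported to restrain glucose uptake, (ENSMUSG00000042659.15, chr7:68736995-68749241, minus strand) was a low-level transcript. It was at 8.93, 8.21 and 10.5 CPM in control, at 5.36, 4.04 and 5.49 CPM in hypoxia and at 5.77, 5.34 and 6.38 CPM in hypoxia + rSRGN. As for Txnip, no hypoxic library reached the lowest control library, and the log2 fold change in hypoxia was −0.89 (SE 0.17, adjusted p = 8.14e-05).

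Arrdc3 (ENSMUSG00000074794.10, chr13:80883384-80896042, plus strand), an alpha-arrestin known for its part in the trafficking of beta-adrenergic receptors, was not called in hypoxia. Its levels were 81.9, 71.8 and 75.6 CPM in control and 95.2, 76.2 and 73.6 CPM in hypoxia, with 105, 109 and 99.3 CPM in hypoxia + rSRGN. Control and hypoxia overlapped (log2 fold change 0.10, SE 0.09, adjusted p = 0.334), and without hypoxia replicate 1 the sign changed to −0.03. The libraries with rSRGN were above all others.

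The Mlx and Mlxip transcripts, which encode the partners of a single dimer, had fold changes of opposite sign in hypoxia. Mlxip (ENSMUSG00000038342.15, chr5:123394798-123457932, plus strand) was at 53.5, 63.4 and 49.6 CPM in control, at 30.7, 26.3 and 29.4 CPM in hypoxia and at 35.9, 37.8 and 32.7 CPM in hypoxia + rSRGN. All control libraries were above all hypoxic ones, and Mlxip fell by 0.94 on the log2 scale in hypoxia (SE 0.10, adjusted p = 2.75e-08).
Mlx (ENSMUSG00000017801.15, chr11:101087277-101092207, plus strand) was at 23.8, 27.2 and 24.0 CPM in control, at 33.5, 35.5 and 33.1 CPM in hypoxia and at 29.1, 27.5 and 29.9 CPM in hypoxia + rSRGN. The groups did not overlap, with hypoxia highest and hypoxia + rSRGN between it and control. The log2 fold change of Mlx in hypoxia was 0.45 (SE 0.09, adjusted p = 0.000227), a 1.36-fold difference that was under the fold limit and so was not called. Mlx shares 385 exon bases (19.3% of its length) with Psmc3ip on the opposite strand, which reached 9.98 CPM.

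Among the glucose transporters, Slc2a4 changed most. Slc2a4 (ENSMUSG00000018566.14, chr11:69942539-69948188, minus strand), the gene of the insulin-responsive transporter GLUT4 of muscle and fat, was at 130.0, 149 and 149 CPM in control, at 9.60, 9.41 and 7.52 CPM in hypoxia and at 17.5, 17.2 and 18.7 CPM in hypoxia + rSRGN. The groups were far apart and did not overlap. In hypoxia the fall was 16.1-fold (log2 fold change −4.01, SE 0.10, adjusted p = 1.32e-18), and only 1.28% of tested genes had a lower value.

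The fall of Slc2a4 went together with the fall of the 16 cardiomyocyte markers, whose log2 fold changes ran from −4.95 to −2.23 with a median of −3.63. Set against the summed level of these markers, Slc2a4 held 24.7, 24.4 and 23.3 CPM per 10000 marker CPM in control and 13.8, 14.6 and 16.9 in hypoxia. The ratio to this sum was thus also lower in hypoxia, with no overlap. The sum weights each marker by its level, and the log2 fold change of Slc2a4 (−4.01) lay inside the range of the single markers. Myh7 (−4.95), Pln (−4.74) and Mybpc3 (−4.10) fell further than Slc2a4, and the other markers fell less. Slc2a1 gave the opposite order on this scale, with 15.8, 18.7 and 22.7 CPM per 10000 marker CPM in control and 93.3, 119 and 149 in hypoxia. The ratio was also higher in hypoxia, without overlap, for Slc2a3 (0.976 to 1.12 in control and 11.2 to 16.1 in hypoxia) and Slc2a8 (2.35 to 3.10 and 11.4 to 24.2), and it overlapped for Slc2a12 (0.467 to 0.709 and 0.180 to 1.17). Of the 5 transporters, Slc2a4 alone had a lower ratio to this sum without overlap.

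**Figure D2:**
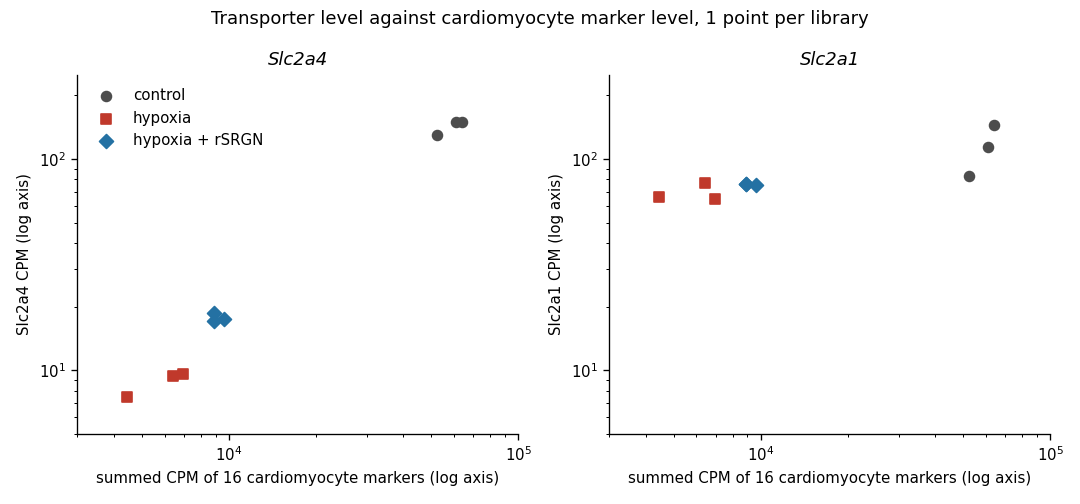
CPM of Slc2a4 (left) and Slc2a1 (right) on a log axis against the summed CPM of 16 cardiomyocyte markers, also on a log axis, with a point for each of the 9 libraries. The 3 hypoxia libraries have the lowest marker sums (4450 to 6953 CPM) and the lowest Slc2a4, those with rSRGN lie above them in both, and Slc2a1 spans only 64.8 to 145 CPM over the whole range.

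Slc2a1 (ENSMUSG00000028645.11, chr4:119108711-119137983, plus strand), the gene of the basal transporter GLUT1 and a known target of hypoxia-inducible factors, was at 83.0, 114 and 145 CPM in control. It was at 64.8, 76.6 and 66.1 CPM in hypoxia and at 75.0, 76.3 and 76.0 CPM in hypoxia + rSRGN. All hypoxic libraries were under the lowest control library, though the control libraries differed from each other by more than that gap. The log2 fold change in hypoxia was −0.72 (SE 0.13, adjusted p = 2.83e-05), and without control replicate 3 it was −0.52, under the fold limit. Slc2a1 carries ACGTG 36 to 32 bases before its RefSeq start.

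Slc2a8 (ENSMUSG00000026791.14, chr2:32972990-32982083, minus strand) encodes GLUT8, which sits mainly on membranes inside the cell. Its levels of 13.7, 18.9 and 15.1 CPM in control, 7.94, 9.46 and 10.8 CPM in hypoxia and 10.2, 9.77 and 11.5 CPM in hypoxia + rSRGN separated control from the other groups. The log2 fold change in hypoxia was −0.76 (SE 0.14, adjusted p = 6.94e-05).

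Slc2a12 (ENSMUSG00000037490.5, chr10:22645011-22704285, plus strand), the gene of GLUT12, a transporter of muscle and fat, was the rarest of the set. It was at 3.73, 3.16 and 2.99 CPM in control, at 0.804, 0.115 and 0.520 CPM in hypoxia and at 0.833, 0.385 and 0.791 CPM in hypoxia + rSRGN. Only 26 fragments were counted over the hypoxia group and 37 with rSRGN, against 215 in control, and the control libraries lay clear of the rest. The fall in hypoxia was 6.70-fold (log2 fold change −2.75, SE 0.43, adjusted p = 7.16e-06), and its SE was the widest of the 10 genes. Tbpl1, which reached 40.3 CPM, shares 407 bases (9.61%) of the Slc2a12 exons on the opposite strand.

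Slc2a3 (ENSMUSG00000003153.10, chr6:122727809-122801640, minus strand), the gene of the high-affinity transporter GLUT3 best known from neurons, was the only transporter of the 5 with a positive estimate in hypoxia. It was at 5.57, 5.95 and 7.14 CPM in control, at 7.78, 9.92 and 7.17 CPM in hypoxia and at 9.58, 10.0 and 7.49 CPM in hypoxia + rSRGN. The highest control library and the lowest hypoxia library were almost level. The log2 fold change in hypoxia was 0.42 (SE 0.17, adjusted p = 0.0332), under the fold limit.

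**Figure D3:**
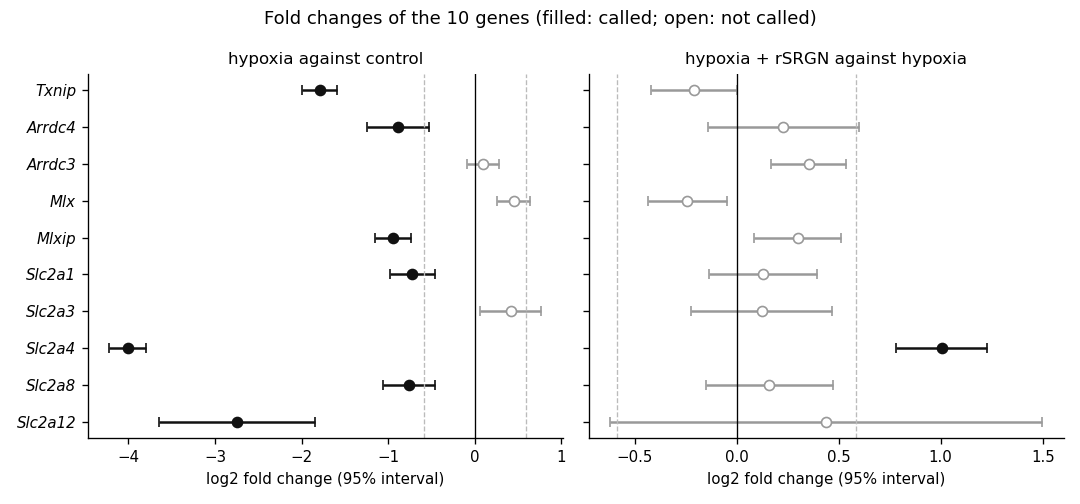
Log2 fold change (horizontal axes) with its 95% interval for each of the 10 genes in hypoxia against control (left) and hypoxia + rSRGN against hypoxia (right), with filled points for called genes and dashed lines at the 1.5-fold limit. On the left 7 genes lie beyond the lower limit, and on the right Slc2a4 alone passes the limit, at 1.01 with an interval of 0.78 to 1.23.

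Levels of different genes were compared per kilobase of counted exon. That length joins all annotated exons of a gene and need not be that of the transcript present in these cells. The order and the transporter shares below depend on it. In control the order was Slc2a4 (41.0 CPM per kilobase), Txnip (34.5) and Slc2a1 (32.5), followed by Mlx (12.5), Arrdc3 (12.2), Mlxip (6.66), Slc2a8 (4.95), Arrdc4 (2.28), Slc2a3 (0.859) and Slc2a12 (0.777). The library values of Slc2a4 and Txnip overlapped, as did those of Txnip and Slc2a1, of Mlx and Arrdc3, and of Slc2a3 and Slc2a12. In hypoxia Slc2a1 (19.7 CPM per kilobase) came first, ahead of Mlx (17.03), Arrdc3 (13.04) and Txnip (9.94), with no overlap between these neighbours. Slc2a4 (2.54 CPM per kilobase) was then seventh and overlapped with Slc2a8 (2.92) just above it. In hypoxia + rSRGN the first places went to Slc2a1 (21.6), Arrdc3 (16.7), Mlx (14.4), Txnip (8.62) and Slc2a4 (5.11), each clear of the next.

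The 5 transporter genes summed to 80.1 ± 12.1 CPM per kilobase in control (SD, n = 3), 26.5 ± 2.12 in hypoxia and 31.4 ± 0.400 in hypoxia + rSRGN. In control Slc2a4 held 51.6% ± 4.28 of this sum and Slc2a1 held 40.1% ± 5.22. In hypoxia the share of Slc2a4 was 9.63% ± 1.30 and that of Slc2a1 was 74.5% ± 0.922, so that the ratio of Slc2a4 to Slc2a1 per kilobase went from between 1.03 and 1.58 to between 0.115 and 0.149. With rSRGN the Slc2a4 share was 16.3% ± 0.528, the Slc2a1 share 68.8% ± 0.831, and the ratio between 0.227 and 0.248. The ratio did not overlap between any of the groups. Slc2a8 held 6.22%, 11.1% and 10.4% in control, hypoxia and hypoxia + rSRGN, Slc2a3 held 1.08%, 4.31% and 3.97%, and Slc2a12 held 0.998%, 0.445% and 0.503%.

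**Figure D4:**
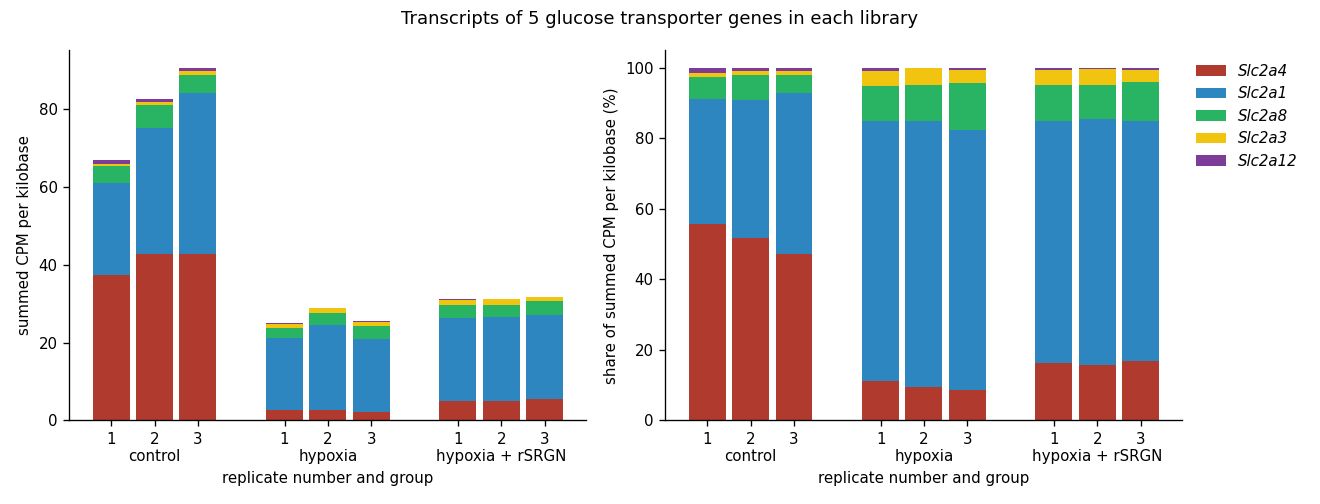
Summed CPM per kilobase of the 5 transporter genes (left) and the share of each in that sum in percent (right), with a stacked bar for each library and colours for genes. The control bars reach 67.0 to 90.7 CPM per kilobase with Slc2a4 (red) at 47.3% to 55.8%, whereas the hypoxia bars reach 24.99 to 28.9 with Slc2a1 (blue) at 74.0% to 75.6%.

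When rSRGN was present during hypoxia, Slc2a4 was the only gene of the 10 that was called against hypoxia alone, and it rose 2.01-fold. By the same rule 3.13% of all tested genes were called, 2.27% as higher and 0.859% as lower, and the median log2 fold change was 0.19 over the 10 genes against −0.03 over all tested genes. The Slc2a4 levels of 17.5, 17.2 and 18.7 CPM with rSRGN were all above the 9.60, 9.41 and 7.52 CPM without it (log2 fold change 1.01, SE 0.11, adjusted p = 1.48e-05). The 95% interval of the fold was 1.72 to 2.34, and 98.6% of tested genes had a lower value. Slc2a4 still stood 8.02-fold below control. Of the 16 cardiomyocyte markers, 13 rose in the same comparison, with a median log2 fold change of 0.77 and a highest value of 1.03. Of 10 fibroblast markers 1 fell, Tcf21, from 128 ± 13.6 to 75.3 ± 9.39 CPM (log2 fold change −0.76). The fibroblast sum of 23041 to 23903 CPM overlapped with that in hypoxia. The macrophage sum of 29.3 to 35.1 CPM lay above that in hypoxia, without overlap, and the endothelial sum of 51.6 to 66.4 CPM overlapped. The smooth muscle and pericyte sum of 2272 to 2395 CPM lay just below the 2397 to 2709 CPM in hypoxia. Acta2 made up most of that sum and went from 2024 ± 165 CPM in hypoxia to 1644 ± 58.8 CPM with rSRGN. The list as a whole had a median log2 fold change of 0.26, with 3 genes higher and 1 lower at an unadjusted p below 0.05. Of these lists, 1 endothelial marker (Kdr, log2 fold change 0.93) and 1 smooth muscle or pericyte marker (Rgs5, 0.78) rose, both named after their values were seen. Per 10000 marker CPM, Slc2a4 held 18.2, 19.3 and 21.0 CPM with rSRGN, all above the 13.8 to 16.9 in hypoxia and all below the 23.3 to 24.7 in control. These ratios depend on how the sum is weighted. Tnnt2, a large part of it, had a log2 fold change of 0.23, and the 1.01 of Slc2a4 lay inside the range of the single cardiomyocyte markers.

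Txnip did not pass the threshold in this comparison (log2 fold change −0.21, SE 0.10, adjusted p = 0.176), and the 95% interval ran from −0.42 to 0.0028. Arrdc4 had an estimate of the other sign, 0.23 (SE 0.18, adjusted p = 0.421, interval −0.14 to 0.60). The Arrdc3 levels of 99.3 to 109 CPM with rSRGN lay above the 73.6 to 95.2 CPM in hypoxia (log2 fold change 0.35, SE 0.09, adjusted p = 0.00905), a 1.28-fold difference under the fold limit. Mlxip also lay higher in every library with rSRGN, at 32.7 CPM or more against 30.7 CPM or less, and the 1.23-fold difference was under the fold limit and passed neither threshold (log2 fold change 0.30, SE 0.10, adjusted p = 0.0508). Mlx lay lower in every library with rSRGN, at 29.9 CPM or less against 33.1 CPM or more (−0.24, SE 0.09, adjusted p = 0.0851). With no gene called lower by edgeR or by DESeq2, Mlx was the only one lower at an unadjusted p below 0.05.

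The other transporters overlapped between hypoxia with and without rSRGN. The log2 fold change was 0.13 for Slc2a1 (95% interval −0.13 to 0.40), 0.16 for Slc2a8 (−0.15 to 0.47), 0.12 for Slc2a3 (−0.22 to 0.47) and 0.44 for Slc2a12 (−0.62 to 1.497), with adjusted p-values between 0.516 and 0.674. These intervals leave room for changes in either direction, and for Slc2a12 also for a change well past the fold limit. Its sign turned to −0.01 without hypoxia replicate 2, the library with 2 fragments of Slc2a12.

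Against control, the cultures with rSRGN had the same 7 genes called lower as hypoxia alone, in a comparison that shares its control libraries with the first and in which 48.8% of tested genes were called, 24.1% as higher and 24.7% as lower. The log2 fold change was −2.00 for Txnip (SE 0.10, adjusted p = 5.59e-14), −3.00 for Slc2a4 (SE 0.09, adjusted p = 5.31e-17) and −2.31 for Slc2a12 (SE 0.41, adjusted p = 3.58e-05). Arrdc4 (−0.66), Mlxip (−0.65), Slc2a8 (−0.60) and Slc2a1 (−0.59) passed the fold limit narrowly, and each lost its call without at least 1 library. Among these, Slc2a1 was at −0.39 without control replicate 3, Slc2a8 at −0.47 and Mlxip at −0.55 without control replicate 2, and Arrdc4 at −0.56 without control replicate 3. Slc2a1 (−0.54) and Slc2a8 (−0.55) also lost the call when scaled by library size alone, and both lost it when only the groups compared were fitted (−0.57 and −0.58). Slc2a1 lost it as well with at least 10 counts in every library (−0.58) and with a replicate block (−0.57). With none of the 10 called higher by edgeR or by DESeq2, 3 were higher at an unadjusted p below 0.05, namely Arrdc3 (log2 fold change 0.45), Slc2a3 (0.54) and Mlx (0.21). Slc2a3 was called higher when scaled by library size alone (0.59), without control replicate 3 (0.64) and without hypoxia + rSRGN replicate 3 (0.65).

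Genes that work with these 10 were followed in 10 lists, of which 66 genes were tested. Together 13 of them rose and 23 fell in hypoxia against control, set beside the 26.4% and 25.1% of all tested genes. With rSRGN against hypoxia, 5 of the 66 rose, set beside the 2.27% of all tested genes called higher, and DESeq2 called 6 higher, with Tbc1d4 (0.59) gaining a call. With all libraries, no gene of the lists was called lower in that comparison by edgeR or by DESeq2. At an unadjusted p below 0.05 and with no fold limit, 26 were higher and 6 lower. Some calls were gained when a library was left out. Hk3 was called lower without hypoxia replicate 2 (−1.75). Acacb (0.77) and Tbc1d4 (0.76) were called higher without hypoxia replicate 1, and Gpd1 (0.77) without hypoxia + rSRGN replicate 3. The list medians ran from −0.24 to 0.33 in that comparison, against −0.03 over all tested genes.

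Outside the 5 transporters of the set, 5 of 11 other hexose and sodium-glucose transporters could be tested, and 3 of them rose in hypoxia (median log2 fold change 0.61, against 0.05 over all tested genes). Slc2a6, a hexose transporter of lysosomal membranes, went from 7.31 ± 1.04 to 15.2 ± 2.27 CPM (log2 fold change 1.05, SE 0.14, adjusted p = 5.61e-07). Slc2a9, which carries urate, had a log2 fold change of 0.61 (SE 0.23, adjusted p = 0.0231), and this call was lost with DESeq2 (0.57), with RLE scaling (0.58), with every gene that had a count tested (0.55) and when any 1 of 4 libraries was left out (0.49 to 0.55). Of 3 other alpha-arrestins 2 were tested (median 0.86) and 1 was called, Arrdc2, which rose from 5.13 ± 0.152 to 11.7 ± 1.56 CPM (1.20, SE 0.15, adjusted p = 4.64e-07).

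Of 6 other partners of Mlx and Max, 2 rose and 2 fell (median 0.21). Mlxipl, which encodes ChREBP, the glucose-sensing relative of MondoA, fell from 2.54 ± 0.534 to 0.166 ± 0.0881 CPM (log2 fold change −3.86, SE 0.50, adjusted p = 4.69e-07), and Mxd4, a repressor that pairs with Max and Mlx, fell by 1.03 (SE 0.07, adjusted p = 2.9e-11). Max (0.70, SE 0.10, adjusted p = 1.82e-06) and Mxd1 (0.70, SE 0.13, adjusted p = 3.98e-05) rose. Max lost its call without hypoxia replicate 2 (0.54) and Mxd1 without hypoxia replicate 1 (0.57).

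Hexokinases make the glucose 6-phosphate that MondoA responds to, and 3 of the 4 tested fell while 1 rose (median −1.92). The one that rose was Hkdc1, a low-level relative named here after its value was seen, at 0.122 ± 0.0499 CPM in control and 1.23 ± 0.236 CPM in hypoxia (log2 fold change 3.27, adjusted p = 1.44e-05). Hk2, the insulin-responsive hexokinase of muscle, fell from 216 ± 43.6 to 54.2 ± 7.61 CPM (log2 fold change −2.00, SE 0.12, adjusted p = 7.29e-13). Hk3, a form of myeloid cells, fell by 2.65 on the log2 scale (SE 0.38, adjusted p = 1.87e-06), beside the 9 of 10 macrophage markers that fell. Among 7 tested genes reported elsewhere as targets of MondoA or ChREBP, 3 rose and 2 fell (median 0.52). Rgs16, a regulator of G-protein signalling, rose by 2.29 (SE 0.20, adjusted p = 9.26e-10) and Klf10, a transcription factor also induced by TGF-beta, by 1.31 (SE 0.09, adjusted p = 7.7e-12), whereas Acacb, the mitochondrial acetyl-CoA carboxylase, fell by 3.48 (SE 0.13, adjusted p = 3.97e-16) and Gpd1, the cytosolic glycerol 3-phosphate dehydrogenase, by 3.16 (SE 0.19, adjusted p = 1.27e-12).

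In the thioredoxin system of 8 genes, 1 rose and 2 fell (median −0.19). Txn1, the cytosolic thioredoxin that TXNIP binds, rose from 119 ± 6.12 to 228 ± 6.55 CPM in hypoxia (log2 fold change 0.94, SE 0.07, adjusted p = 7.81e-11), so that Txnip and its binding partner moved in opposite directions. Txnrd3, a thioredoxin and glutathione reductase (−1.17, SE 0.12, adjusted p = 8.81e-09), and Prdx3, the mitochondrial peroxiredoxin (−0.94, SE 0.08, adjusted p = 3.15e-10), fell.

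AMPK marks TXNIP for breakdown, and 3 of its 7 subunit genes fell in hypoxia (median −0.42). Prkaa2, the catalytic subunit that prevails in muscle, was at 211 ± 9.43 CPM in control and fell in hypoxia, with 858 fragments counted over the 3 libraries (log2 fold change −3.72, SE 0.11, adjusted p = 2.17e-17), and Prkag2, a regulatory subunit of the heart, by 2.59 (SE 0.09, adjusted p = 1.98e-16). Of 7 ubiquitin ligases of the Nedd4 family, which alpha-arrestins recruit, 3 fell (median −0.37), among them Itch, which marks TXNIP with ubiquitin (−0.68, SE 0.08, adjusted p = 1.66e-07). Nedd4 also fell (−0.63, SE 0.07, adjusted p = 1.22e-07), and it lost its call when scaled by library size alone (−0.56) or without hypoxia replicate 3 (−0.58).

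Among 13 genes of GLUT4 vesicle traffic, 4 fell and 1 rose in hypoxia (median −0.27). Tbc1d4, the AS160 protein that holds GLUT4 vesicles back until insulin acts, fell by 2.30 on the log2 scale (SE 0.12, adjusted p = 1.59e-13), and Sort1, a sorting receptor of these vesicles, by 1.77 (SE 0.10, adjusted p = 1.03e-12). Stx4a, the surface syntaxin at which they fuse, rose by 0.88 (SE 0.08, adjusted p = 1.75e-09). Among 7 genes listed as regulators of the Slc2a4 gene, 4 fell and 1 rose (median −0.68). Ppargc1a, the coactivator PGC-1 alpha of mitochondrial genes, fell from 109 ± 5.74 to 10.3 ± 2.14 CPM (−3.40, SE 0.12, adjusted p = 1.95e-16) and the zinc finger gene Zbtb20 by 2.23 (SE 0.10, adjusted p = 4.47e-15), whereas Slc2a4rg-ps, annotated as a pseudogene, rose by 1.07 (SE 0.21, adjusted p = 0.000111).

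With rSRGN against hypoxia, the list genes that rose were Prkaa2 (log2 fold change 0.70, SE 0.12, adjusted p = 0.000388), Ppargc1a (0.67, SE 0.13, adjusted p = 0.00117), Zbtb20 (0.67, SE 0.10, adjusted p = 0.000122), Slc2a13, a myo-inositol transporter (0.64, SE 0.14, adjusted p = 0.00417), and Sort1 (0.61, SE 0.11, adjusted p = 0.000594). Their values lay between 0.47 and 0.57 without hypoxia replicate 3, and all 5 calls were then lost. That library had the lowest cardiomyocyte marker sum of the 9, at 4450 CPM. Without it the Slc2a4 call of this comparison held, and 321 genes were called in place of 525.

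**Figure D5:**
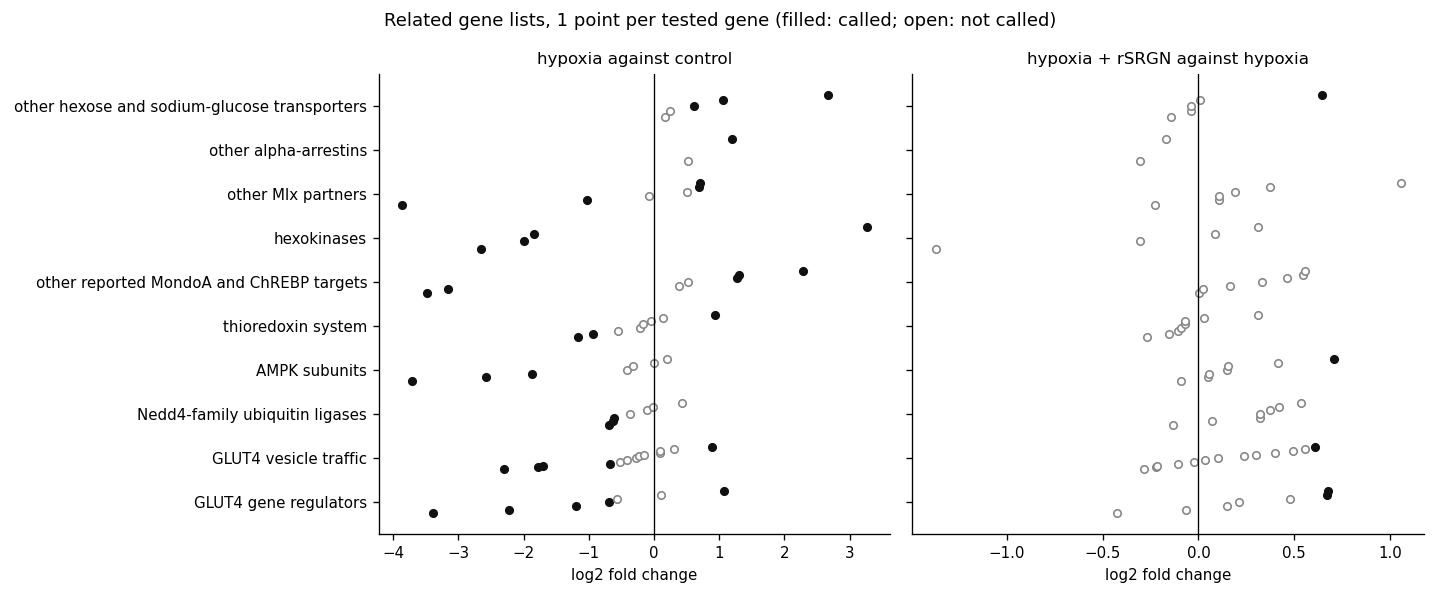
Log2 fold change (horizontal axes) of each tested gene of 10 related lists (rows) in hypoxia against control (left) and hypoxia + rSRGN against hypoxia (right), with filled points for called genes and open points for the rest. On the left 13 genes are called higher and 23 lower, and on the right the 5 called genes lie between 0.61 and 0.70, all to the right of 0.

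Over the 9 libraries and among 14255 genes with a mean of at least 1 CPM, the log2 levels most like those of Txnip by Pearson's r were those of Twf2 (0.998), Dcaf8 (0.997), Psme1 (0.996), Mrpl16 (0.996) and Hint2 (0.995). The control libraries stood apart from the other 6 in each of these genes, and 1424 genes had an r of at least 0.95, so that the value singles out no small group. In hypoxia the log2 fold changes of the 5 genes lay between −1.36 for Mrpl16 and −0.74 for Twf2, smaller than the −1.79 of Txnip. Of the set itself, Slc2a4 (r = 0.931) came closest to Txnip at rank 2129, followed by Arrdc4 (r = 0.899) at rank 2899 and Slc2a12 (r = 0.892) at rank 3055, as descriptions over libraries that share their groups.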

How the data were processed

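For each gene the authors deposited unnormalized counts of fragments, as whole numbers, next to the counted exon length, for 3 control, 3 hypoxia and 3 hypoxia + rSRGN libraries made from poly(A) RNA. Per the file headers, featureCounts 2.0.1 counted read pairs on exons of GENCODE release 25 (GRCm38) with no strand option, and the submitters' processing notes name HISAT2 and mm10. All count columns were used. Groups and replicate numbers came from the sample titles.

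After filterByExpr and TMM scaling, the 9 libraries were fitted together in edgeR 4.0.16 (R 4.3.3) and compared with its quasi-likelihood test, which was first checked on simulated data. The simulated counts had few changed genes, in equal numbers higher and lower. That check therefore does not cover comparisons in which as many genes change as in those with control. P-values were adjusted by the Benjamini-Hochberg method over 16762 genes. Calls required an adjusted p under 0.05 with a change of 1.5-fold or more. SEs and 95% intervals were derived from the F statistic. CPM used TMM-scaled totals, log2 CPM a prior count of 2, and lists were described by counts. Depth was 16583985 to 22781557 counts per library, and within-group pairs differed beyond counting noise (chi-square per degree of freedom 3.63 to 13.1).

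The genes named were the 10 of the set, up to 2 called genes in each direction per pathway list with a mean of at least 1 CPM, and the 5 most like Txnip. Hkdc1, Kdr, Rgs5, Tcf21, Acta2, Tnnt2, Myh7, Pln and Mybpc3 fall outside this rule and were named after their values were seen. Gm15441, Psmc3ip and Tbpl1 were named for sharing exon bases with genes of the set. The genes and lists were chosen with earlier results of these data known. Alternatives were DESeq2 1.42.0, RLE scaling, library size alone, other count filters, the unadjusted p, no fold limit, only the groups compared, a replicate block and each library left out. Figures were drawn with matplotlib 3.10.9.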

Additional observations from a re-analysis of the deposited data

How the results depend on the processing

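Of the fold changes of the 10 genes recomputed under every alternative, 513 kept their direction and their side of the threshold, 14 lost and 8 gained a call, and 2 turned sign. The mean levels in CPM all moved by less than 1 SD when scaled by library size alone. The number of the 10 genes called ranged over single left-out libraries from 6 to 7 in hypoxia against control and from 5 to 8 in hypoxia + rSRGN against control, and stayed at 1 in hypoxia + rSRGN against hypoxia, where it was 2 with no fold limit (Slc2a4 and Arrdc3). Slc2a12 was not tested with at least 10 counts in every library.

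For hypoxia + rSRGN against hypoxia, 525 genes were called (381 higher, 144 lower), 899 with the unadjusted p and 2790 with no fold limit, and the number ran from 321 without hypoxia replicate 3 to 699 without hypoxia replicate 2. DESeq2 called 436 higher and 79 lower, RLE scaling 442 and 106, and library size alone 347 and 172. The range with 1 library left out was 8496 to 8952 in hypoxia against control and 8028 to 8535 in hypoxia + rSRGN against control. Library size alone moved the median log2 fold change of all genes in hypoxia from 0.05 to 0.12.

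The replicate numbers did not pair the libraries (correlations of deviations from −0.0374 to 0.0215). With a replicate block, 8550, 495 and 8096 genes were called in the 3 comparisons, and among the 10 genes only Slc2a1 in hypoxia + rSRGN against control lost its call (−0.57).

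Log2 fold changes that turned sign were all uncalled, and the cause was not tested. With 1 library left out, Arrdc3 in hypoxia ran from −0.028 to 0.17, and in hypoxia + rSRGN against hypoxia the values ran from −0.012 to 1.04 for Slc2a12, from −0.15 to 0.069 for Slc2a6, from −0.16 to 0.21 for Slc2a9, from −0.13 to 0.29 for Rgs16, from −0.21 to 0.023 for Txnrd3, from −0.031 to 0.10 for Prdx3 and from −0.17 to 0.031 for Mrpl16. With library size alone, that of Slc2a9 was −0.020 and that of Rgs16 was −0.016.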
